A study of Triticum aestivum with 18 samples.

Results

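BN607 (Bainong607) is a bread wheat variety that the study chose as its waterlogging-tolerant line, and its seeds gave 6 of the 18 RNA-seq libraries of the series. The 6 libraries were selected by their variety label alone. W72_BN607 (3 libraries) came from seeds that stood under water for 72 h, at a depth of 10 cm in the labels, and were then germinated in a Petri dish, wetted but not covered. C72_BN607 (3 libraries) came from seeds that took up water for 24 h and were germinated with no waterlogging. Both groups were collected after 72 h of germination at 25 °C in a growth chamber, and by the study's methods the radicle and the coleoptile were cut off first, so that a library holds the rest of the seed. The study's methods describe the treatment otherwise, in Petri dishes of water covered with foil and kept in the dark at a lower temperature than the growth chamber, and mention no separate water uptake of the controls. The sources thus disagree on the vessel and on the controls, and the text follows the labels. The question was what waterlogging before germination does to the transcriptome of the tolerant variety. Lack of oxygen, a longer stay in water and a longer time from first wetting to collection cannot be told apart in this design. The same holds for the dark and the lower temperature that the study's methods give for the treatment. The study calls the libraries of a group biological replicates. Neither it nor the labels say whether the 3 libraries came from separate dishes, so part of the spread between them may be technical. The p-values of the gene tests rest on a spread within groups estimated over all 18 libraries, other varieties included, unless a fit is said to use fewer. In such bulk samples fewer cells of a type and less RNA per cell cannot be told apart.

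A germinating cereal grain has a small embryo beside a starchy endosperm that is dead at maturity, and a living aleurone layer around it. Gibberellin from the embryo induces the aleurone to secrete alpha-amylases, proteinases, xylanases and arabinofuranosidases, which dissolve the endosperm, while the oil of the aleurone and scutellum is turned into sugar through beta-oxidation and the glyoxylate cycle. Under water oxygen becomes scarce, and plant cells then rely on glycolysis with ethanol fermentation, in which pyruvate decarboxylase and alcohol dehydrogenase (ADH) regenerate NAD+. Plant cysteine oxidases are the oxygen sensors of this response, and they mark ERF transcription factors for destruction as long as oxygen is present. Bread wheat is hexaploid, and most genes are present as homeologous copies on the A, B and D chromosomes.

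The library W72_BN607_1 stood apart. Total counts were 103703374, 101666831 and 102077198 in C72_BN607 and 72683831, 97098733 and 95876807 in W72_BN607 replicates 1 to 3, and 33662 genes reached 1 FPKM (fragments scaled to exon length and to library size, so a level per length) in W72_BN607_1, against 41754 to 44198 in the other 5 libraries. Its correlation with those 5, on log2 values over all genes tested, was 0.749 to 0.826, while they correlated at 0.895 to 0.947 among themselves. It had the lowest FPKM of the 6 libraries for 58.3% of the genes tested and the highest for 16%, and its 10 most abundant genes took 10.8% of its counts, against 4.02% to 5.89% elsewhere. Histone transcripts, which are made in cells that copy their DNA, separated the libraries too. The median of log2(FPKM + 1) over 242 histone loci was 4.19, 5.36 and 5.38 in C72_BN607 replicates 1 to 3 and 2.52, 6.18 and 4.59 in W72_BN607 replicates 1 to 3. The group difference was -0.55 (exact permutation test, two-sided, p = 0.8, where 0.1 is the smallest p that 3 against 3 libraries allow), and it was 0.41 without W72_BN607_1. The counts of genes past a threshold are therefore given for all libraries, without W72_BN607_1, and with the histone median of each library as a covariate. For gene lists the median is that of all libraries unless another fit is named.

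Transcripts that mark tissues of the grain were present at unequal levels. For the starchy endosperm, the 3 puroindoline loci summed to 5.49 to 17.9 FPKM in C72_BN607 and to 143, 1.67 and 65.0 FPKM in W72_BN607 replicates 1 to 3, and the 99 gluten loci to 3.63 to 14.7 FPKM and to 14.5, 0.764 and 12.2 FPKM, with 23 gluten loci at 0 in all 6 libraries. For the aleurone, 40 alpha-amylase loci summed to 4484 to 9719 FPKM in C72_BN607 and to 26214, 1645 and 6905 FPKM in W72_BN607, and 5 loci of the cysteine proteinase EP-B to 575 to 1624 FPKM and to 2215, 1222 and 437 FPKM. The table describes 0 loci as oleosins. For dividing tissue, 268 histone loci summed to 5561 to 13441 FPKM and to 2072, 23849.5 and 7886 FPKM. Green tissue was scarce: 187 photosystem and light-harvesting loci summed to 36.7 to 91.1 FPKM and to 17.7, 195 and 25.8 FPKM, with 52 of them at 0 throughout. Of the root markers, 6 Casparian strip loci summed to 0.0956 to 1.62 FPKM and none passed the filter on low values, 55 nitrate transporter loci summed to 19.96 to 35.0 FPKM, and 397 class III peroxidase loci, which other tissues also express, to 516 to 1424 FPKM. The labelled seed material thus showed its aleurone and dividing-cell markers in all 6 libraries, and the summed levels of puroindolines, gluten, alpha-amylases, EP-B, histones and photosystem genes covered a wider range over W72_BN607 than over C72_BN607. The part of these differences in the results that follow was not tested.

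Across the whole transcriptome the test found no DEG in BN607. Of 94141 genes, 50656 reached 1 FPKM in 3 or more of the 18 libraries, and 0 of them (0%) passed an adjusted p of 0.05 in edgeR's quasi-likelihood test, where every adjusted p was 1. At an unadjusted p under 0.05 there were 1072 genes (2.12%). Without W72_BN607_1 the counts were 0 and 476 (0.94%), and with the histone covariate 0 and 1727 (3.41%). limma on log2(FPKM + 1) called 0 genes, and DESeq2 called 34 (0.0671%), 18 higher and 16 lower. In 28 of those 34 one group was at 0 in every library, 27 reached 1 FPKM in at most 1 of the 6 libraries, and 5 were detected in both groups without overlap. By contrast, the histone covariate itself was associated with 22648 genes at an adjusted p under 0.05 in the same edgeR fit over the 18 libraries. That count describes how the libraries vary, and says nothing of waterlogging.

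The study called DEGs at an unadjusted p under 0.05 with a log2 fold change beyond 1 in either direction. At those thresholds edgeR gave 473 higher (0.934% of the genes tested) and 196 lower genes (0.387%) in W72_BN607. Without W72_BN607_1 there were 116 higher (0.229%) and 231 lower (0.456%), and with the covariate 235 (0.464%) and 679 (1.34%), so the balance of directions turned. Of the 473 higher genes 402 (85.0%) had their highest FPKM in W72_BN607_1, 32 in W72_BN607_2 and 39 in W72_BN607_3. Genes selected as higher or lower have their extreme in a waterlogged library almost by selection, so the shares over all genes tested are no baseline here. Of the 473, 62 (13.1%, or 53.4% of the 116) were also past the thresholds without that library. Of the 196 lower genes 127 (64.8%) had their lowest FPKM in W72_BN607_1 alone, 18 in W72_BN607_2 alone and 7 in W72_BN607_3 alone, with ties counted for no library. Of the 196, 73 (37.2%, or 31.6% of the 231) were also past the thresholds without that library. Past the thresholds in all 3 fits were 58 higher and 73 lower genes, of which 24 and 63 had no overlap between the 3 waterlogged and the 3 control libraries in FPKM. Over all genes tested, 755 (1.49%) lay higher and 4029 (7.95%) lower without overlap in FPKM. On counts scaled by TMM (trimmed mean of M-values), which is less affected by a few very abundant genes, the split was 2359 (4.66%) higher and 2992 (5.91%) lower.

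**Figure D1:**
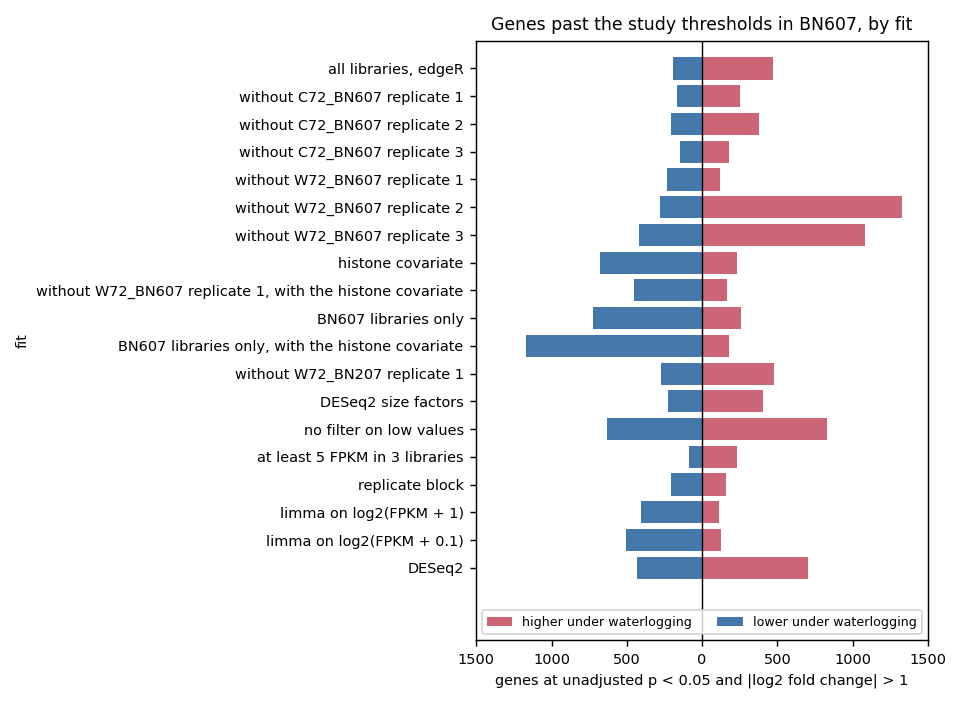
Number of genes at an unadjusted p under 0.05 and a log2 fold change above 1 (red, to the right) or below -1 (blue, to the left) between W72_BN607 and C72_BN607, for each fit named on the vertical axis. The count of higher genes ran from 114 to 1328 and the count of lower genes from 85 to 1168. With all libraries there were 473 higher genes. Leaving out W72_BN607 replicate 1, 2 or 3 gave 116, 1328 or 1082 higher genes, and C72_BN607 replicate 1, 2 or 3 gave 249, 381 or 178. The lower count was 196 with all libraries and 148 to 416 with 1 BN607 library left out.

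The 12 genes described next are those with a named protein, a mean of at least 5 FPKM in the higher group, the same direction past the thresholds in all 3 fits and no overlap in FPKM. They were selected on these same values, so the values describe them and test nothing. The clearest of the lower genes was TraesCS5D02G323800 (5D:415746116-415748227), a cytochrome P450 of the CYP71 family, whose members oxidise a wide range of plant secondary compounds. It stood at 13.5, 16.2 and 11.9 FPKM in C72_BN607 and at 2.77, 4.45 and 6.54 FPKM in W72_BN607, a log2 fold change of -1.44 (SE 0.33, unadjusted p = 0.000627 in edgeR, adjusted p = 0.0297 in DESeq2). All waterlogged libraries lay below all controls, and the fold change was -1.33 without W72_BN607_1 and -1.37 with the covariate.

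Among the other lower genes, ATP sulfurylase (TraesCS5A02G382900, 5A:580802616-580806190), the first enzyme of sulfate assimilation, was at 55.0, 53.1 and 40.9 FPKM in C72_BN607 and at 8.46, 19.1 and 29.7 FPKM in W72_BN607 (log2 fold change -1.27, SE 0.41). Phosphoethanolamine methyltransferase (TraesCS1A02G369600, 1A:547298439-547304124), which makes phosphocholine for membrane lipids, was the most abundant gene of the set, at 186, 125 and 139 FPKM against 47.9, 26.05 and 72.0 FPKM (log2 fold change -1.41, SE 0.51). In both genes the highest waterlogged library stayed below the lowest control. A mitochondrial protein with a MOSC domain, a fold of molybdenum cofactor enzymes (TraesCS5B02G366800), was at 8.02, 3.67 and 4.54 FPKM against 2.36, 1.98 and 2.34 FPKM. Its groups did overlap on TMM-scaled values.

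Dof1, a zinc-finger transcription factor known in maize as an activator of carbon metabolism genes, appeared with both its 6A and its 6B copy. TraesCS6B02G317100 stood at 5.86, 8.63 and 5.38 FPKM in C72_BN607 and at 1.84, 2.31 and 3.33 FPKM in W72_BN607 (log2 fold change -1.21, SE 0.38). TraesCS6A02G287700 stood at 5.43, 8.24 and 6.15 FPKM against 2.20, 2.95 and 2.57 FPKM (log2 fold change -1.12, SE 0.42). In both copies C72_BN607_2 was the highest and W72_BN607_1 the lowest library. The copies share reads, so they are no independent evidence of each other. XTH22 (TraesCS7A02G427100), a xyloglucan endotransglucosylase/hydrolase that cuts and rejoins the xyloglucan of growing walls, was at 9.195, 4.97 and 6.14 FPKM against 1.25, 2.38 and 2.20 FPKM (log2 fold change -1.65, SE 0.53). GST1 (TraesCS4B02G059300), a glutathione S-transferase, was at 13.4, 13.9 and 26.8 FPKM against 3.42, 5.17 and 5.11 FPKM (log2 fold change -1.78, SE 0.59). A type 2 non-specific lipid transfer protein (TraesCSU02G032900, on an unplaced scaffold) was at 52.6, 16.3 and 28.1 FPKM against 4.92, 1.56 and 8.34 FPKM, with a log2 fold change of -2.53 (SE 1.01). For these 3 genes the lowest waterlogged library was not the same one: W72_BN607_1 for XTH22 and GST1, and W72_BN607_2 for the lipid transfer protein.

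Fewer genes lay higher under the same rule. TraesCS1D02G069700 (1D:50294151-50308146), whose description likens it to nuclear receptor corepressor 1, was at 0.362, 0.383 and 0.481 FPKM in C72_BN607 and at 10.3, 2.17 and 2.60 FPKM in W72_BN607. Its log2 fold change was 4.09 (SE 1.06; adjusted p = 0.016 in DESeq2 and 1 in edgeR), and 2.55 without W72_BN607_1, which held the highest value. A putative lysine-specific demethylase of the JMJD5 kind (TraesCS7B02G145500, 7B:188926297-188945026) had the tightest waterlogged values, 5.20, 4.99 and 5.54 FPKM, against 2.87, 1.67 and 2.95 FPKM in C72_BN607 (log2 fold change 1.30, SE 0.36). An ethylene receptor, the membrane protein through which a cell perceives ethylene (TraesCS5B02G527300, 5B:686468904-686472261), was at 1.90, 1.72 and 0.355 FPKM against 13.6, 2.02 and 7.87 FPKM, with a log2 fold change of 2.94 (SE 0.89). Here W72_BN607_2 exceeded the highest control only narrowly.

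**Figure D2:**
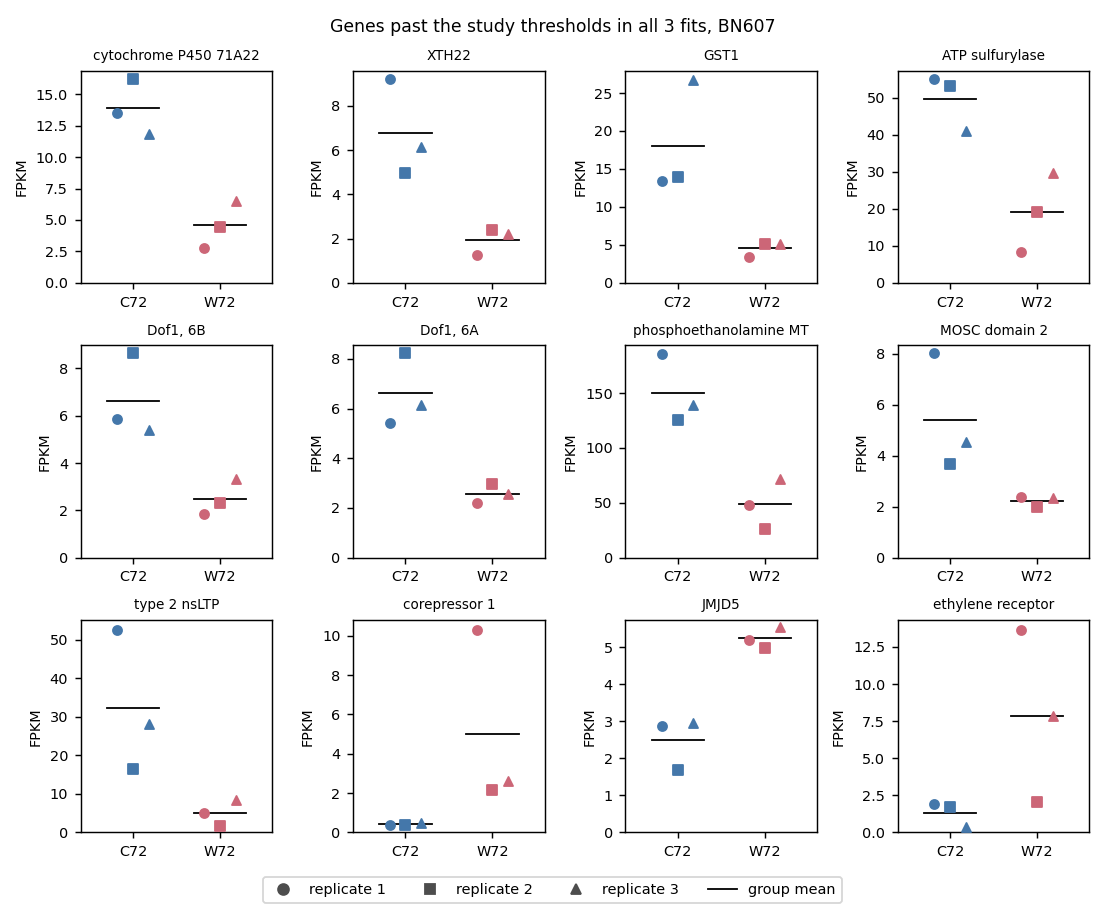
FPKM of 12 genes in C72_BN607 (blue) and W72_BN607 (red), with a marker for each replicate number and a line at the group mean of 3 libraries. All were past the study thresholds in all 3 fits without overlap. Of such genes only those with a named protein and a mean of at least 5 FPKM in the higher group are shown. In 9 genes every waterlogged library lay below every control, and in 3 genes (corepressor 1, JMJD5, ethylene receptor) above.

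The remaining results follow 48 lists of genes, read from the descriptions in the table. As background, the median log2 fold change of all genes tested was 0.10 with all libraries, 0.03 without W72_BN607_1 and 0.06 with the covariate, and 59.5%, 53.6% and 56.6% of the genes had a fold change above 0. No list member passed the adjusted threshold in edgeR, so the counts and medians below describe the lists. Counts without overlap are to be read against the shares over all genes tested, 7.95% lower and 1.49% higher in FPKM and 5.91% lower and 4.66% higher on TMM-scaled values.

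Aquaporins, the channels that carry water across the plasma membrane and the vacuole membrane, mostly lay below the controls. Their median log2 fold change was -0.84 over 39 genes tested, -0.72 without W72_BN607_1 and -0.81 with the covariate, and in these fits 3, 6 and 1 genes lay above 0. In 20 of the 39 all waterlogged libraries lay below all controls in FPKM (7.95% of all genes tested), and in 19 on TMM-scaled values (5.91%). The tonoplast channel TIP1-2 (TraesCS3A02G535300, 3A:746917073-746918602), the most abundant of them, was at 140, 92.4 and 145 FPKM in C72_BN607 and at 21.1, 66.5 and 44.5 FPKM in W72_BN607 (log2 fold change -1.39, SE 0.90, unadjusted p = 0.144). The aquaporin TraesCS2A02G379900 (2A:622851565-622853991) was at 17.8, 14.0 and 16.2 FPKM against 2.78, 3.59 and 6.67 FPKM (log2 fold change -1.73, SE 0.82, unadjusted p = 0.052). Summed over the list, FPKM was 946, 909 and 953 in C72_BN607 and 315, 579 and 577 in W72_BN607. The controls thus lay within a narrow band, and W72_BN607_1 was the lowest library for 30 of the 39 genes, as it was for 58.3% of all genes.

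After 72 h of germination out of the water, no fermentation gene lay above the controls in all waterlogged BN607 libraries. The libraries give no level from the time under water, so a response during waterlogging was not tested. Of 35 alcohol dehydrogenases tested, 8 (22.9%, against 7.95% of all genes) were lower without overlap in FPKM and 6 on TMM-scaled values. None was higher, where the share over all genes was 1.49% in FPKM, so that a count of 0 in a list of this size is no result. The list had a median log2 fold change of -0.38, -0.44 without W72_BN607_1 and -0.59 with the covariate. The list takes in cinnamyl-type and other dehydrogenases of that name as well as the fermentation enzymes. The most abundant, ADH1A (TraesCS4A02G202100), was at 204, 115 and 311 FPKM in C72_BN607 and at 136, 152 and 157 FPKM in W72_BN607 (log2 fold change -0.28, SE 0.70), and its groups overlapped. ADH2 is among the genes selected for quantitative PCR (qPCR). Its locus (TraesCS5D02G196300, 5D:299832208-299835185, described as ADH2H) was at 40.2, 58.3 and 40.3 FPKM against 1.19, 21.1 and 22.4 FPKM, a log2 fold change of -1.59 (SE 1.30, unadjusted p = 0.241) and -1.07 without W72_BN607_1. Every waterlogged library was below every control. The 5A and 5B genes described as ADH2, named here after their values were seen, ran in parallel: TraesCS5A02G193900 was at 24.0, 31.7 and 23.6 FPKM against 0.283, 7.70 and 9.52 FPKM, and TraesCS5B02G189200 at 5.60, 5.97 and 5.14 FPKM against 0.0357, 2.90 and 2.22 FPKM. In all 3 copies W72_BN607_1 was nearly without transcript and the other waterlogged libraries were at a similar level to each other. Such copies share reads, so they are no independent evidence of each other. The primers designed for ADH2 are shown as the study assigned them, to the 5D gene. Whether they also read the other copies was not tested.
ADH2 forward: aagtctgcctccttagct
ADH2 reverse: gttcaagtccacaccgata

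Other genes of the low-oxygen response, read at the same time after the water, showed no common direction. Pyruvate decarboxylase, which takes pyruvate to acetaldehyde, was led by TraesCS4D02G194200 at 52.4, 35.4 and 109 FPKM in C72_BN607 and 32.2, 51.4 and 31.7 FPKM in W72_BN607, and the 6 genes tested had a median log2 fold change of -0.35 and overlapped between the groups. Of 3 lactate dehydrogenases TraesCS7B02G317900 reached 8.23 FPKM in C72_BN607_3 and at most 0.344 FPKM in the other 5 libraries. The non-symbiotic haemoglobins, which scavenge nitric oxide in oxygen-starved cells, were both at low levels: TraesCS1D02G340600 at 9.77, 8.23 and 10.3 FPKM against 12.9, 13.5 and 6.53 FPKM, and TraesCS1B02G350800 at 11.4, 5.68 and 6.18 FPKM against 5.50, 2.82 and 3.47 FPKM. The pair thus pointed in opposite directions, and only the second had no overlap in FPKM. Of 5 plant cysteine oxidases all had a fold change above 0 with all libraries and 3 without W72_BN607_1, with medians of 0.35 and 0.11 (0.37 with the covariate). The most abundant (TraesCS6D02G250800) was at 5.48, 6.66 and 7.04 FPKM against 5.00, 7.75 and 8.15 FPKM. It overlapped in FPKM, as all 5 did, but 2 of the 5, this gene among them, were higher without overlap on TMM-scaled values (4.66% of all genes). The 9 alternative oxidases tested, which let respiration bypass part of the electron chain, had a median of -0.50 and 0 genes above 0 in the 3 fits, at levels of a few FPKM. Over 93 glycolytic enzymes the median was 0.00, and the most abundant, glyceraldehyde-3-phosphate dehydrogenase TraesCS7D02G309500, was at 431, 319 and 320 FPKM against 140, 252 and 281 FPKM.

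Ethylene, a gas that accumulates in flooded tissue, is made by ACC synthase and ACC oxidase. Here too the seeds had germinated out of the water before they were collected. In 7 of 13 synthesis genes tested (53.8%, against 7.95% of all genes in FPKM and 5.91% on TMM-scaled values) all waterlogged libraries lay below all controls, on both scales, and the list median was -0.83, -0.72 without W72_BN607_1 and -0.58 with the covariate. The ACC oxidase TraesCS4B02G005300 (4B:3784814-3786198), the most abundant, was at 9.47, 15.2 and 11.3 FPKM in C72_BN607 and at 0.0706, 6.47 and 6.24 FPKM in W72_BN607 (log2 fold change -1.46, SE 1.54). TraesCS7D02G529400, also an ACC oxidase, was at 1.73, 2.37 and 2.48 FPKM against 0.0225, 0.840 and 0.885 FPKM. In both, W72_BN607_1 was close to 0 and the other waterlogged libraries were at about the same level as each other, as in ADH2. The 51 ERF and CBF transcription factors, many of which respond to ethylene or cold, had a median of 0.12, which was -0.05 without W72_BN607_1 and -0.08 with the covariate.

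Of the detoxification genes, part of the glutathione S-transferases lay below all controls in every waterlogged library. Among 72 glutathione S-transferases tested, which couple glutathione to reactive compounds, 22 (30.6%, against 7.95% of all genes) were lower without overlap in FPKM, 20 on TMM-scaled values (5.91% of all genes) and 0 higher, with a median of -0.57, -0.33 without W72_BN607_1 and -0.54 with the covariate. The most abundant, TraesCS3B02G334500 (glutathione transferase F1), was at 416, 326 and 343 FPKM in C72_BN607 and at 110, 194 and 351 FPKM in W72_BN607, so that W72_BN607_3 lay among the controls. The list summed to 2214, 2064 and 2046 FPKM in C72_BN607 and to 549, 1128 and 2278 FPKM in W72_BN607. W72_BN607_1 was the lowest library for 56 of the 72 genes (58.3% of all genes), and W72_BN607_3 the highest for 23 (18.3%). Over 68 enzymes that remove reactive oxygen the median was -0.05, with 9 lower without overlap in FPKM (13.2%) and 5 on TMM-scaled values. Cytosolic ascorbate peroxidase 1 (TraesCS4B02G197900) was at 1876, 996 and 1561 FPKM against 858, 1631 and 1181 FPKM. Monodehydroascorbate reductase 4 (TraesCS6D02G254000), which regenerates ascorbate, was at 9.75, 15.7 and 10.2 FPKM against 39.5, 8.73 and 13.7 FPKM. Its log2 fold change of 1.25 rested on W72_BN607_1 and was -0.07 without it.

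The phenylpropanoid pathway leads from phenylalanine to lignin and other phenolics. Of 43 of its enzymes tested 11 (25.6%, against 7.95% of all genes) were lower without overlap in FPKM and 1 higher (10 and 1 on TMM-scaled values), with a median of -0.59, -0.26 without W72_BN607_1 and -0.65 with the covariate. The caffeic acid O-methyltransferase TraesCS2B02G066100 (2B:33351099-33353072), which methylates lignin precursors, was at 145, 133 and 127 FPKM in C72_BN607 and at 6.38, 87.6 and 75.8 FPKM in W72_BN607 (log2 fold change -1.21, SE 1.37). The 1 higher gene was also a caffeic acid O-methyltransferase, TraesCS1D02G359500, at 1.89, 2.004 and 0.609 FPKM against 13.9, 2.25 and 5.75 FPKM. Class III peroxidases, which cross-link walls with hydrogen peroxide, had a median of -0.34 over 94 genes that was 0.08 without W72_BN607_1 and -0.35 with the covariate. Peroxidase 54 (TraesCS1D02G096400) was at 0.107, 0.154 and 0.117 FPKM against 3.89, 3.88 and 0.253 FPKM, high in 2 of the 3 waterlogged libraries. Beta-glucosidases, which release active compounds from their glucosides, had a median of -0.75 over 40 genes, -0.53 without W72_BN607_1 and -0.61 with the covariate, with 12 lower (30%, against 7.95% of all genes) and 1 higher without overlap in FPKM (10 and 1 on TMM-scaled values). The most abundant, TraesCSU02G036600, was at 107, 62.8 and 42.2 FPKM against 0.227, 33.5 and 129 FPKM, so it was near 0 in W72_BN607_1 and highest in W72_BN607_3.

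**Figure D3:**
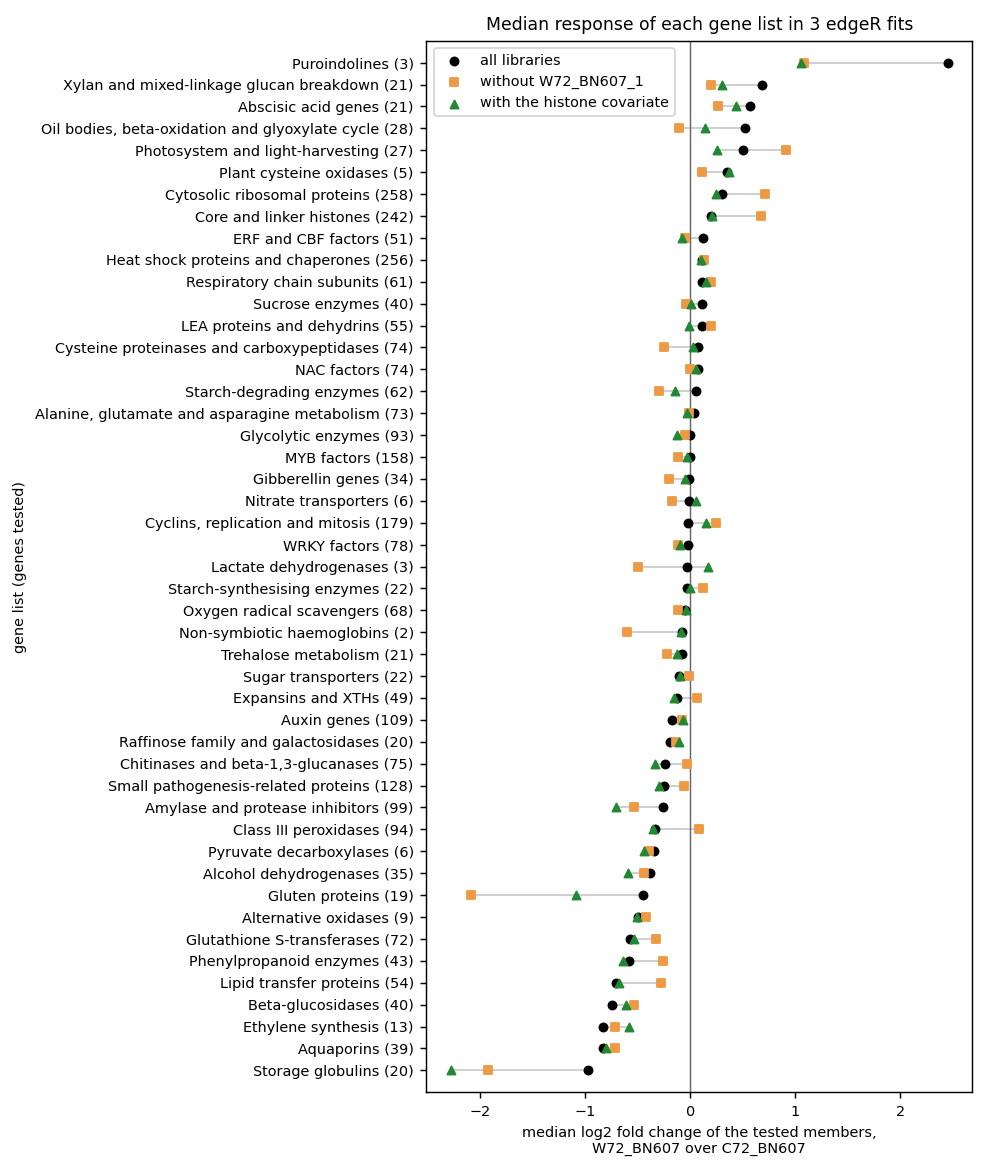
Median log2 fold change (W72_BN607 over C72_BN607) of the tested members of each of 47 gene lists, with all libraries (black), without W72_BN607_1 (orange) and with the histone covariate (green), and the number of genes in brackets. Aquaporins lay at -0.84, -0.72 and -0.81 in the 3 fits, while the medians for puroindolines (2.45, 1.08 and 1.05) and storage globulins (-0.98, -1.93 and -2.28) moved with the fit.

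Some families of enzymes that dissolve the endosperm or use its oil were highest in W72_BN607_1, while the lists they belong to were mixed. Of 62 starch-degrading enzymes tested 23 were highest there and 27 lowest, and of 74 cysteine proteinases and carboxypeptidases 20 and 39. The families described next were singled out after their values were seen. Alpha-amylases, which cut starch, were highest in W72_BN607_1 for 20 of 33 genes tested (16% of all genes) and lowest in W72_BN607_2 for 20 (15.3%). Their median log2 fold change was 1.11 with all libraries, -0.51 without W72_BN607_1 and -0.11 with the covariate. Beta-amylases, which also cut starch, were lowest in W72_BN607_1 for 7 of 7 genes. The most abundant alpha-amylase (TraesCS6D02G298500, 6D:409346689-409348723) was at 615, 1460 and 544 FPKM in C72_BN607 and at 3815, 204 and 1021 FPKM in W72_BN607. W72_BN607_3 thus lay inside the control range, W72_BN607_1 above it and W72_BN607_2 below it. Cathepsin B, a cysteine proteinase of the storage protein breakdown, was highest in W72_BN607_1 for 4 of 4 genes (TraesCS4D02G061400 at 1004, 1257 and 516 FPKM against 4411, 606 and 1099 FPKM). Isocitrate lyase and malate synthase, the enzymes of the glyoxylate cycle, were highest there for 3 of 3 genes, and isocitrate lyase TraesCS2A02G219100 was at 381, 668 and 161 FPKM against 2114, 405 and 488 FPKM. A caleosin, a protein of the oil body surface (TraesCS2A02G367700), was at 7.61, 25.3 and 6.20 FPKM against 219, 16.8 and 47.0 FPKM (log2 fold change 3.41, SE 1.05, and 1.32 without W72_BN607_1).

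Enzymes that dissolve cell walls were mixed in the same way: of 21 genes for xylan and mixed-linkage glucan breakdown 9 were highest and 8 lowest in W72_BN607_1, and of 10 endo-xylanases 5 and 4. All 10 endo-xylanases tested had a fold change above 0 with all libraries and with the covariate, and 8 of 10 without W72_BN607_1, with medians of 1.20, 0.93 and 0.59. Endo-1,4-beta-xylanase TraesCS5B02G445500 was at 8.55, 147 and 31.9 FPKM in C72_BN607 and at 1584, 79.0 and 172 FPKM in W72_BN607. Alpha-L-arabinofuranosidase 1 (TraesCS5D02G152100), which trims arabinose from arabinoxylan, was at 727, 1303 and 265 FPKM against 3952, 471 and 1820 FPKM. In each of these genes both groups spanned a wide range and overlapped. The endochitinase PR4 (TraesCS2B02G368900), a defence protein of the grain, was the most abundant member of its list, at 5711, 10469 and 4270 FPKM against 30164, 3823 and 12854 FPKM. It was highest in W72_BN607_1 and lowest in W72_BN607_2, while of the 75 chitinases and beta-1,3-glucanases of its list 8 were highest and 47 lowest in W72_BN607_1.

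For 10 genes with qPCR primers, the deposited RNA-seq values split by whether W72_BN607_1 carried the difference. The study picked them at random from its DEGs, which were called on the libraries of this series. Their values therefore describe them and test nothing. The symbols are those of the primer list, and for several the deposited description differs. Cht4 (TraesCS2B02G369000, 2B:526669706-526671012), a chitinase by its symbol, was at 144, 119 and 123 FPKM in C72_BN607 and at 340, 155 and 304 FPKM in W72_BN607, without overlap (log2 fold change 1.34, SE 0.63, unadjusted p = 0.0503, and 0.81 without W72_BN607_1). ASD1 (TraesCS5B02G138700, 5B:262423419-262430618), an arabinoxylan arabinofuranohydrolase, was at 472, 861 and 271 FPKM against 3323, 267 and 1394 FPKM (log2 fold change 2.11, SE 0.97, and 0.62 without W72_BN607_1). W72_BN607_2 lay below every control in this gene. SSII-3 (TraesCS7B02G093800, 7B:107604257-107611452), a starch synthase, was below 0.5 FPKM in all libraries but W72_BN607_1: 0.428, 0.242 and 0.314 FPKM against 2.31, 0.276 and 0.268 FPKM. Its log2 fold change of 2.05 (SE 1.07) was -0.28 without that library. Primers of the 3 genes are given because each stands for one of these outcomes: no overlap, overlap, and a difference from a single library.
Cht4 forward: gagatagccgccttcttc
Cht4 reverse: agttgtagttccacgtcag
ASD1 forward: tccgcacagaactcatatc
ASD1 reverse: tccagtaattccagacatcc
SSII-3 forward: cgaacaccaccagaatca
SSII-3 reverse: accacaaccataacacgat

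Of the other qPCR genes, GAUT4 (TraesCS5D02G264700), a glycosyltransferase described as QUASIMODO1 and known in Arabidopsis for pectin synthesis, was at 2.11, 2.63 and 1.59 FPKM in C72_BN607 and at 9.71, 2.02 and 2.56 FPKM in W72_BN607. PAH1 (TraesCS1A02G287400), by its symbol a phosphatidate phosphatase of lipid synthesis, was at 5.21, 10.6 and 6.56 FPKM against 38.2, 6.29 and 7.23 FPKM. Their log2 fold changes of 1.65 and 1.74 became 0.13 and -0.11 without W72_BN607_1, and that of GT7 (TraesCS6D02G266700) went from 1.53 to 0.07. DGD1 (TraesCSU02G186800), by its symbol a galactolipid synthase, was at 0, 1.91 and 1.22 FPKM against 9.10, 1.95 and 1.89 FPKM, with an overlap that was lost on TMM-scaled values. CRK10 (TraesCS2A02G215900), a cysteine-rich receptor-like kinase, was lower without overlap, at 2.53, 4.66 and 5.57 FPKM against 0.424, 1.46 and 2.37 FPKM (log2 fold change -1.48, SE 0.80, and -1.13 without W72_BN607_1). GUX1 (TraesCS1A02G266600, described as glycogenin-1) was lower too, at 7.83, 11.8 and 7.64 FPKM against 0.558, 3.17 and 4.87 FPKM (log2 fold change -1.60, SE 1.26, and -1.17 without W72_BN607_1). ADH2, CRK10 and GUX1 therefore lay below the controls in all 3 waterlogged libraries and Cht4 above them, and the other 6 genes overlapped in FPKM. Over all genes tested 7.95% lay lower and 1.49% higher without overlap in FPKM, but the qPCR genes were drawn from DEGs.

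**Figure D4:**
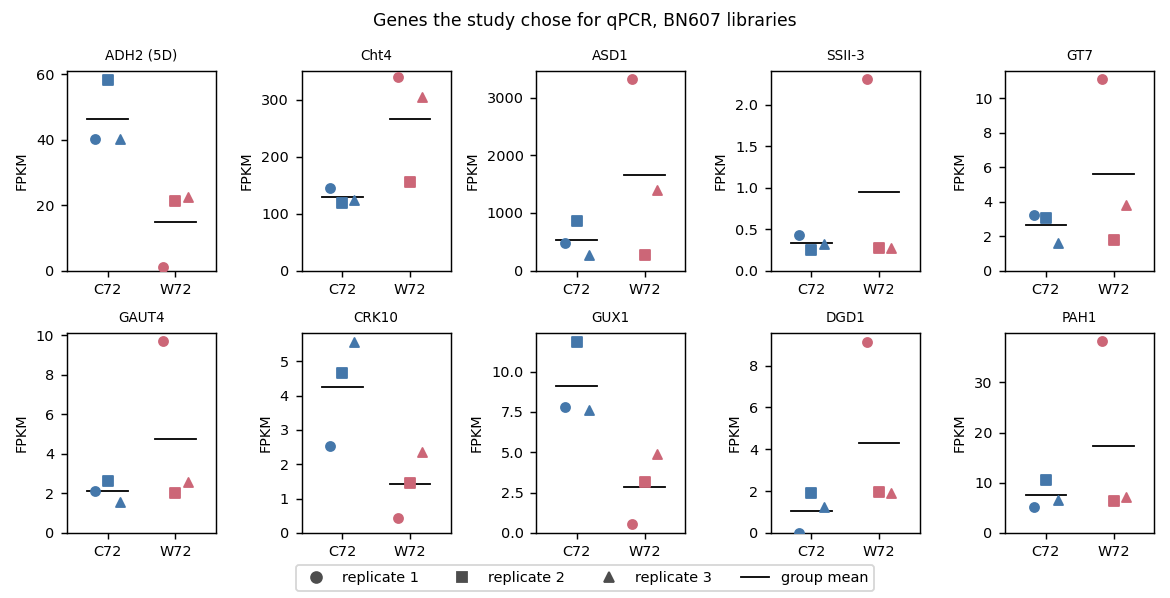
FPKM of the 10 genes that the study chose for qPCR, in C72_BN607 (blue) and W72_BN607 (red), with a marker for each replicate number and a line at the group mean of 3 libraries. W72_BN607_1 (red circle) was the highest library in ASD1, SSII-3, GT7, GAUT4, DGD1, PAH1 and Cht4 and the lowest in ADH2, CRK10 and GUX1.

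Storage protein transcripts were scarcest in W72_BN607_2. Globulins are storage proteins of the embryo and aleurone, and 16 of 20 storage globulin genes tested had their lowest FPKM in W72_BN607_2. Globulin-3A (TraesCS4A02G296000, 4A:596304815-596307299) was at 54.3, 79.6 and 220 FPKM in C72_BN607 and at 68.6, 3.87 and 34.4 FPKM in W72_BN607. The list median was -0.98, -1.93 without W72_BN607_1 and -2.28 with the covariate, and 6 of the 20 were lower without overlap in FPKM (30%, against 7.95% of all genes) but 3 on TMM-scaled values. A glutelin-like gene of the list, TraesCS1A02G045800, was at 10.2, 12.02 and 10.6 FPKM against 4.15, 3.97 and 6.29 FPKM, without overlap on both scales (log2 fold change -0.97, SE 0.55). Puroindoline-A (TraesCS5D02G004100), which softens the endosperm, was at 17.2, 5.28 and 6.83 FPKM against 140, 1.67 and 63.2 FPKM, and wheatwin-2 (TraesCS3D02G524700), a pathogenesis-related protein of the grain, at 268, 233 and 322 FPKM against 691, 9.72 and 694 FPKM. W72_BN607_2 was the lowest and the other waterlogged libraries were the highest in both of these.

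Inhibitors of amylases and proteases guard the reserves. The subtilisin-chymotrypsin inhibitor-2A (TraesCS3D02G094200, 3D:47779208-47779929) was at 572, 667 and 430 FPKM in C72_BN607 and at 15.1, 169 and 192 FPKM in W72_BN607, without overlap (log2 fold change -2.11, SE 0.96, unadjusted p = 0.044, and -1.62 without W72_BN607_1). Over 99 inhibitors tested the median was -0.26, -0.53 without W72_BN607_1 and -0.71 with the covariate, with 8 (8.08%) lower without overlap in FPKM and 7 on TMM-scaled values, close to the share of 7.95% over all genes. Lipid transfer proteins, small secreted carriers of lipids, had a median of -0.71 over 54 genes, -0.28 without W72_BN607_1 and -0.68 with the covariate. Dehydrins, which protect drying seeds, followed neither group: 37 loci summed to 705, 85.6 and 120 FPKM in C72_BN607 and to 32.7, 47.9 and 1140 FPKM in W72_BN607. C72_BN607_1 and W72_BN607_3, 1 library of each group, were thus the high ones. The 8 abscisic stress-ripening proteins, counted in the same list of LEA proteins and dehydrins, were lowest in W72_BN607_1 for 8 of 8 genes, and summed to 1219 to 1528 FPKM in C72_BN607 and to 338, 791 and 997 FPKM in W72_BN607.

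Histone and ribosomal protein transcripts set W72_BN607_1 and W72_BN607_2 apart from the other libraries. Of 242 histone genes tested 231 were highest in W72_BN607_2 and 227 lowest in W72_BN607_1, and of 258 cytosolic ribosomal protein genes 241 and 250, against 24.1% and 58.3% of all genes. Summed alpha-amylases ranked these libraries the other way round, but among the controls C72_BN607_1 had the lowest sum of both histones and alpha-amylases. The histone H1 gene TraesCS5B02G448500 was at 211, 371 and 322 FPKM in C72_BN607 and at 118, 494 and 268 FPKM in W72_BN607, and ribosomal protein L27-3 (TraesCS7B02G444400) at 178, 294 and 308 FPKM against 63.7, 588 and 308 FPKM. Every histone and ribosomal gene tested overlapped between the groups in FPKM. The medians of 0.19 and 0.30 with all libraries were 0.67 and 0.71 without W72_BN607_1, and 0.21 and 0.25 with the covariate, which is built from the histones. Over 179 genes of cyclins, replication and mitosis the median was -0.02, 0.25 without W72_BN607_1 and 0.15 with the covariate. Of 27 photosystem genes tested 23 were highest in W72_BN607_2, all at low levels, and chlorophyll a-b binding protein 1 (TraesCS5D02G357600) was at 0.231, 0.282 and 1.504 FPKM against 0.404, 5.51 and 0.0636 FPKM.

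**Figure D5:**
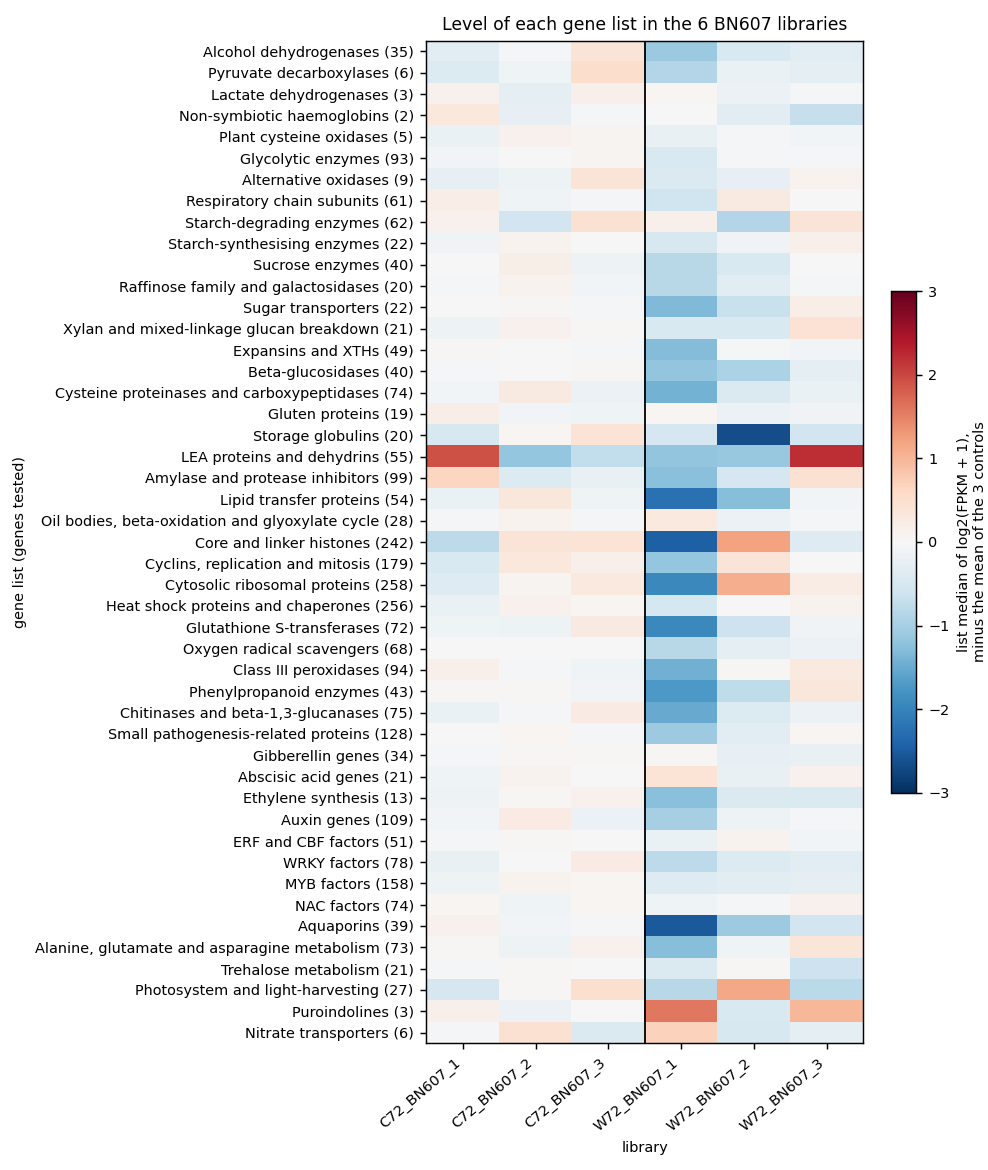
Median of log2(FPKM + 1) over the tested members of each gene list in each of the 6 BN607 libraries, minus the mean of the 3 controls, on a colour scale from -3 (blue) to 3 (red), with the number of genes in brackets. Aquaporins were below the controls in all 3 waterlogged libraries, histones and ribosomal proteins were low in W72_BN607_1 and high in W72_BN607_2, and LEA proteins and dehydrins were high in C72_BN607_1 and W72_BN607_3.

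Beside the ethylene synthesis genes, other hormone lists differed among themselves. Abscisic acid, which holds seeds dormant, had 20 of 21 genes with a fold change above 0 with all libraries and 16 of 21 in each of the other 2 fits, with medians of 0.57, 0.27 and 0.43, where 59.5% of all genes lay above 0 with all libraries. A Ninja-family protein (TraesCS2A02G176300), a repressor that binds the regulator ABI5, was at 2.19, 2.58 and 2.72 FPKM in C72_BN607 and at 2.92, 3.91 and 5.65 FPKM in W72_BN607, without overlap (log2 fold change 0.92, SE 0.46). Gibberellin genes had a median of -0.01 over 34 genes, -0.20 without W72_BN607_1 and -0.05 with the covariate. Gibberellin 20-oxidase 1 (TraesCS4A02G234100), which makes precursors of active gibberellin, was at 39.8, 35.0 and 47.5 FPKM against 37.4, 3.16 and 35.5 FPKM, low in W72_BN607_2 alone. The median of 109 auxin genes was -0.17, and -0.08 and -0.07 in those fits.

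Transcription factor families had medians of -0.02 over 78 WRKY, 0.00 over 158 MYB and 0.07 over 74 NAC genes, which were -0.12, -0.12 and -0.01 without W72_BN607_1. Lower without overlap in FPKM were 12 WRKY (15.4%) and 30 MYB genes (19.0%), against 7.95% of all genes, and 5 NAC genes (6.76%). On TMM-scaled values the counts were 11, 22 and 5. WRKY80 (TraesCS6A02G146900) was at 1.28, 0.955 and 2.20 FPKM in C72_BN607 and at 0.114, 0.416 and 0.461 FPKM in W72_BN607, without overlap (log2 fold change -2.05, SE 0.87, and -1.74 without W72_BN607_1). WRKY34 (TraesCS4A02G193600), the most abundant of the family, was at 23.3, 16.3 and 47.3 FPKM against 87.2, 7.23 and 2.75 FPKM, so its fold change of 0.75 became -2.50 without W72_BN607_1. NAC29 (TraesCS4D02G175700) was at 2.20, 2.60 and 2.09 FPKM against 5.48, 3.70 and 3.55 FPKM, without overlap (log2 fold change 1.20, SE 0.43, and 0.67 without W72_BN607_1). MYBS3 (TraesCS1A02G219400), known in rice as a repressor of alpha-amylase genes in sugar signalling, was at 7.66, 9.26 and 6.84 FPKM against 23.3, 8.82 and 12.7 FPKM, and W72_BN607_2 lay within the control range.

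Carbon and nitrogen metabolism showed single genes without overlap. A trehalose-phosphate synthase (TraesCS4D02G239700), which makes the sugar signal trehalose-6-phosphate, was at 9.76, 11.7 and 10.2 FPKM in C72_BN607 and at 1.95, 6.93 and 4.07 FPKM in W72_BN607 (log2 fold change -1.14, SE 0.57, and -0.91 without W72_BN607_1). Glutamate decarboxylase (TraesCS3A02G022600), which makes GABA, was at 20.9, 17.3 and 19.2 FPKM against 4.44, 6.93 and 17.1 FPKM, without overlap in FPKM but with overlap on TMM-scaled values. Beta-galactosidase 7 (TraesCS1D02G267600) was at 0.157, 0.329 and 0.192 FPKM against 5.63, 1.40 and 0.930 FPKM (log2 fold change 4.04, SE 1.35, and 2.40 without W72_BN607_1). The sugar exporter SWEET4 (TraesCS6A02G218800) was at 257, 139 and 203 FPKM against 134, 281 and 188 FPKM, and sucrose-phosphate synthase (TraesCS4D02G088200) at 51.1, 39.4 and 43.2 FPKM against 57.4, 58.2 and 33.8 FPKM. Both overlapped. Over 22 sugar transporters the median was -0.11, and 5 of them (22.7%, against 7.95% of all genes in FPKM) were lower without overlap on both scales. Over 40 sucrose enzymes it was 0.11, -0.05 without W72_BN607_1 and 0.01 with the covariate. For 61 respiratory chain subunits the median was 0.11, for 256 heat shock proteins and chaperones 0.12, and for 73 enzymes of alanine, glutamate and asparagine metabolism 0.03.

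The response of BN607 was also tested against that of the other varieties, ZM22 and BN207, each with 3 waterlogged and 3 control libraries treated alike. The difference from the ZM22 response passed an adjusted p of 0.05 in edgeR for 2 of 50656 genes (0.00395%), MSTRG.30200 and TraesCS1B02G048800, and that from the BN207 response for 0. At an unadjusted p under 0.05 there were 693 (1.37%) and 689 (1.36%) genes, and DESeq2 called 109 (0.215%) and 163 (0.322%). Both genes called against ZM22 were at 3.39 to 13.1 FPKM in the 6 BN607 libraries, with log2 fold changes of -0.09 (SE 0.25) and -0.14 (SE 0.34) in BN607 itself, and were at 0.0345 to 0.21 FPKM in C72_ZM22 and at 0 in W72_ZM22.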

How the data were processed

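RNA from seeds of 3 wheat varieties under 2 treatments was sequenced in 18 libraries (3 per group, poly(A) selected). Per the study's methods, the authors removed adapters and poor reads by cutadapt. HISAT placed the reads on the wheat assembly IWGSC RefSeq v1.0, and StringTie built the transcripts (none of these tools has a version in the sources used here). The authors deposited 1 table with the FPKM and the estimated count of each gene. Such expected counts are derived from coverage, are not single reads, and were used as whole numbers. Whether counting used strand was not stated, and homeologues, other near-identical genes and overlapping genes share reads. Groups came from the sample titles, and the sources give no batch.

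The 50656 of 94141 genes that reached 1 FPKM in 3 or more libraries were tested with edgeR 4.0.16 (R 4.3.3; TMM, quasi-likelihood, 1 mean per group over 18 libraries, Benjamini-Hochberg; common biological coefficient of variation 0.676), also without W72_BN607_1 and with each library's histone median as a covariate. DESeq2 1.42.0, limma 3.58.1 (on log2 of FPKM plus 1 or 0.1), other filters, scaling, sample sets and a replicate block were alternatives. The fits were also run on simulated counts with known changed genes. That check required recovery only of edgeR at a spread well below that of these data, and no simulated library stood apart. It therefore cannot tell how many changed genes the tests would miss here. Coordinates and descriptions are those of the deposited table.

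The comparison, the 48 lists (some patterns were corrected after the descriptions were seen) and the tests were chosen with earlier results of these data known. Named genes were up to 15 per direction past the study thresholds in 3 fits without overlap and at a mean of 5 FPKM or more, the most abundant tested member and that of smallest p in each list, the 10 qPCR genes, and genes called between varieties. Not every gene so named is printed.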

Additional observations from a re-analysis of the deposited data

Results flagged for a closer look

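The difference between the BN607 and the ZM22 response was past the adjusted threshold in edgeR for 2 genes. MSTRG.30200 (6B:715743060-715751618), an assembled locus without a description, had a difference of 6.69 on the log2 scale (SE 0.63, adjusted p = 0.00747). It was at 9.43, 10.7 and 9.16 FPKM in C72_BN607 and at 7.43, 7.20 and 8.604 FPKM in W72_BN607. In C72_ZM22 it was at 0.0625, 0.0429 and 0.0345 FPKM (15, 12 and 10 counts) and in W72_ZM22 at 0 in every library. In BN207 it was at 6.43 to 9.56 FPKM in all 6 libraries. TraesCS1B02G048800 (1B:28561964-28564707), described as a hypothetical protein, had a difference of 7.31 (SE 0.80, adjusted p = 0.0214). It was at 7.47, 12.7 and 12.6 FPKM in C72_BN607 and at 3.39, 10.9 and 13.1 FPKM in W72_BN607, while C72_ZM22 had 0.1, 0.0848 and 0.21 FPKM (15, 14 and 35 counts) and W72_ZM22 had 0. Fold changes against a group at 0 depend on the prior count of the fit and are no bound.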

How the results depend on the processing

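No edgeR or limma alternative called a gene in BN607 except the fit without W72_BN207 replicate 1, which called 1 (MSTRG.28611, a locus at 0 in every W72_BN607 library, named after its values were seen). DESeq2 called 34. Against 473 higher and 196 lower genes at the study thresholds, leaving out 1 BN607 library gave 116 to 1328 higher and 148 to 416 lower. The pairs of higher and lower counts were 235 and 679 with the histone covariate, 168 and 450 with it and without W72_BN607 replicate 1, 256 and 728 with BN607 libraries only, 177 and 1168 with BN607 libraries only and the covariate, 832 and 633 with no filter on low values, 230 and 85 at 5 FPKM or more, 114 and 407 in limma on log2(FPKM + 1), 126 and 507 in limma on log2(FPKM + 0.1), and 704 and 433 in DESeq2. The fit within BN607 with the covariate, the TMM-scaled overlap counts and the histone level at a pseudocount of 0.1 were added after seeing the data. The replicate block gave 157 higher and 208 lower genes and called 0. Libraries of the same number deviated from their group means with correlations of 0.14, 0.10 and -0.12, and those of unlike number with -0.32 to 0.23. With 3 libraries per group these values cannot decide whether the numbers pair the samples. The test against the ZM22 response called 2 genes, 1 to 3 with 1 library left out (3 without W72_BN207 replicate 1), 0 with the replicate block and in both limma fits, and 109 in DESeq2. The test against BN207 called 0 genes, 1 without W72_BN207 replicate 1, 1 in limma on log2(FPKM + 0.1) and 163 in DESeq2. The histone difference of -0.55 ran from -1.42 to 0.41 with 1 library left out, and was 0.41 without W72_BN607 replicate 1. Without that library 14 of 112 named genes and 11 of 47 list medians had the other sign, and with the covariate 4 and 7. At 5 FPKM or more no gluten gene was left for a list median. The cause of these shifts was not tested. Total counts of 72683831 to 103703374 per library are derived from coverage. They are no number of reads and give no bound on the precision of single genes. The spread between libraries limits that precision: histone medians had an SD of 1.83 in W72_BN607 and 0.683 in C72_BN607.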
